A study of Mus musculus with 3 samples.

Results

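The genes described here are 42 mouse genes that encode the subunits of voltage-gated sodium channels, voltage-gated calcium channels and the calcium release channels of the endoplasmic reticulum. They were chosen by symbol, as names that begin with Scn, Cacna, Cacnb, Cacng, Ryr or Itpr followed by a digit, with at least 10 UMIs in the whole matrix. A UMI is a molecular tag that marks 1 captured RNA molecule. Of 28001 features, 47 symbols matched and 15647 features of any name reached 10 UMIs. The 5 matching symbols below that level were Cacna1f with 9 UMIs, Scn10a and Scn11a with 2 each, and Scn4a and Itpr3os with 0. Their counts come from single-cell RNA sequencing of nucleus accumbens tissue from Thy1::ChR2 mice, in 3 samples of a single group. All 3 samples came from 400 um coronal brain dissections and had FLiCRE labelling during optogenetic stimulation in the nucleus accumbens. Thy1::ChR2 mice carry the light-gated cation channel channelrhodopsin-2 under the Thy1 promoter, which drives expression in subsets of neurons. The labels give no age, no unstimulated or unlabelled group, and no statement that the samples were separate animals, so p-values measure only the spread between these libraries. Comparisons are therefore between classes of cells within libraries.

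FLiCRE is a genetic recorder: when calcium inside a cell rises while light is on, the cell transcribes a reporter gene. In neurons, voltage-gated sodium channels carry the upstroke of the action potential, and the depolarization opens voltage-gated calcium channels. Each of these channels has a pore-forming alpha subunit and auxiliary subunits that set its surface level and its gating. Ryanodine receptors (Ryr) and inositol trisphosphate receptors (Itpr) release calcium from the endoplasmic reticulum, the latter downstream of receptors that activate phospholipase C. The main cell of the nucleus accumbens is the GABAergic spiny projection neuron, of which one type carries the dopamine receptor D1 and the other the receptor D2.

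The 3 libraries held 2717, 6627 and 2281 cells with a median of 894, 2019 and 2330 UMIs, and 13, 7 and 22 cell barcodes were shared between library pairs. Libraries are numbered by the suffix of the cell barcodes, which no label ties to a replicate. Cells were assigned to 15 classes by marker genes, none of which is a channel gene. Of 10291 cells that passed filters, 4854 were gated as neurons (1461 of them of no class) and 3644 as non-neuronal. Levels are in CPM, the counts per 1e+06 UMIs summed over a class in a library, and these sums ranged from 6498 UMIs (T cells, library 3) to 3780234 UMIs (D1 spiny neurons, library 2). A level built on few UMIs is therefore coarse, above all in T cells, fibroblasts, Sst-Npy and Pvalb interneurons, and in the 7 Tshz1-type neurons of library 1. Of the D2 list, Drd2 itself stood at a mean of 2.31 CPM in the D2 class, so that class rests on Adora2a, Penk and Gpr6. Of the D1 list, Tac1, Eya1 and Sfxn1, and of the D2 list Sp9, were higher in another class than in their own. Neuron markers in non-neuronal classes stood between 0.598% and 16.8% of their level in neurons, which is the reference for neuronal RNA found in other cells. In all 9 non-neuronal classes this share was highest in library 2.

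Levels of the 42 genes divided the classes mainly into neurons and other cells, and further patterns appeared within each. Of the 42, 11 had their highest mean level in glutamatergic neurons, 10 in D2 spiny neurons, 4 each in Tshz1-type spiny neurons, Pvalb interneurons and oligodendrocyte precursor cells (OPCs), and 3 each in D1 spiny neurons and Sst-Npy interneurons. Cacna2d4 was highest in oligodendrocytes, Cacna1s in microglia and Itpr3 in T cells, each on 6 or fewer UMIs in that class. In 37 of the 42 the libraries of the highest class overlapped those of the next class, so the order of those neighbours is not resolved. The 5 without overlap were Cacna1b, Cacna2d1 and Cacnb3 in glutamatergic neurons, Scn1a in Pvalb interneurons and Cacng4 in OPCs. The same counts were not made over all genes, so these are not read as particular to channel genes.

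**Figure D1:**
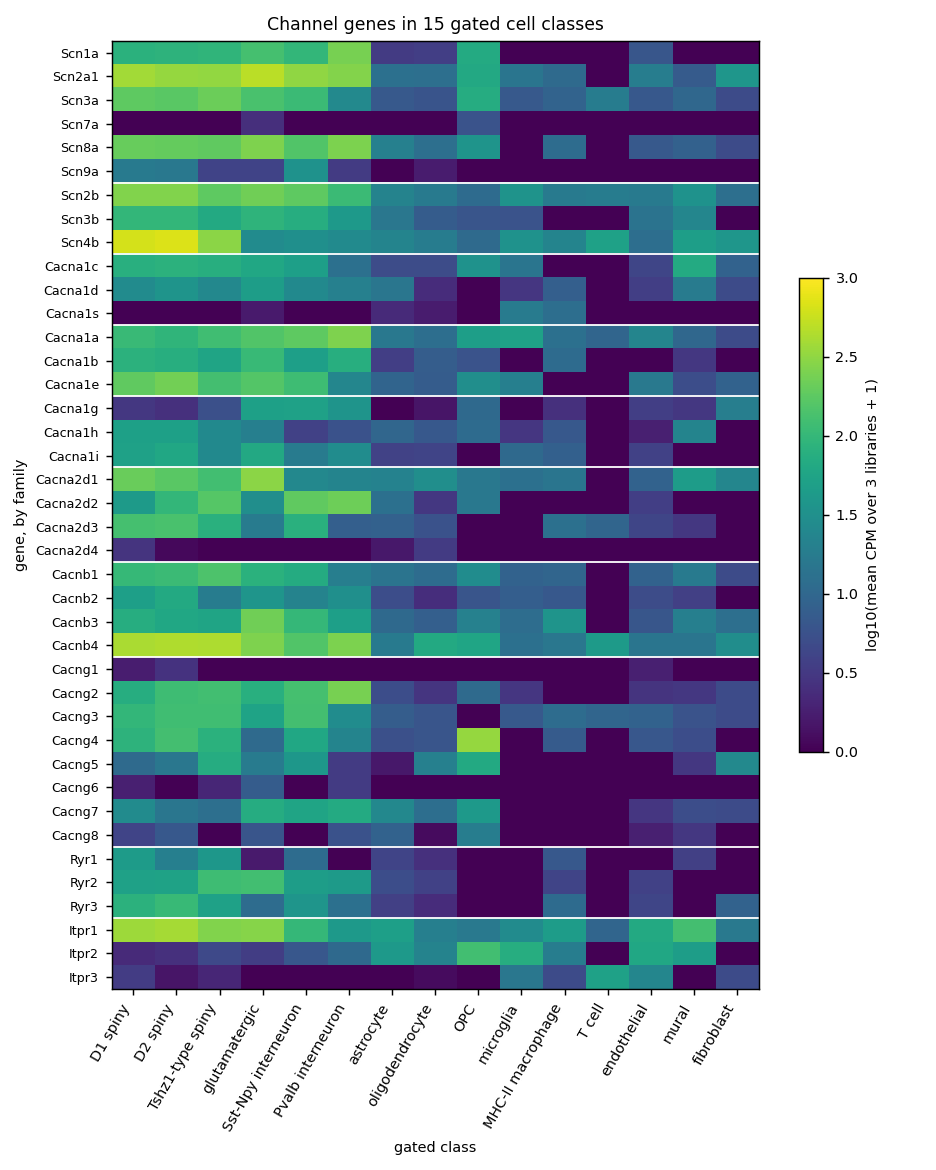
Mean level of 40 of the channel genes (rows, grouped by subunit family and separated by white lines) in 15 gated classes (columns), as log10 of the mean CPM over 3 libraries plus 1. Most rows are bright in the 6 neuronal columns at the left and dark at the right, with Itpr2 (bright in OPCs, microglia and endothelial cells) among the exceptions.

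Promoter windows of 250 bases upstream of the transcription start (RefSeq, GRCm38.p6) were matched for 30 of the 42 genes, in 41 windows. The 3 printed were chosen after the values were seen, because they belong to genes with different patterns: Scn4b was high in spiny neurons, Cacna2d2 was higher in D2 than in D1 spiny neurons, and Itpr2 was higher in non-neuronal cells. They are Scn4b (chr9:45138374-45138623, plus strand), Cacna2d2 (chr9:107399630-107399879, plus strand) and Itpr2 (chr6:146502224-146502473, minus strand), with CpG dinucleotides in capitals.
Scn4b: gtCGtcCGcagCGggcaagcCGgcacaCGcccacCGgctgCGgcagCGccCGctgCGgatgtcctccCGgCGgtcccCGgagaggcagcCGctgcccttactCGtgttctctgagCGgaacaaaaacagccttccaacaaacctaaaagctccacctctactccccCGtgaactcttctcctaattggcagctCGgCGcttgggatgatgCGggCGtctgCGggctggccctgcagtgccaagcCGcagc
Cacna2d2: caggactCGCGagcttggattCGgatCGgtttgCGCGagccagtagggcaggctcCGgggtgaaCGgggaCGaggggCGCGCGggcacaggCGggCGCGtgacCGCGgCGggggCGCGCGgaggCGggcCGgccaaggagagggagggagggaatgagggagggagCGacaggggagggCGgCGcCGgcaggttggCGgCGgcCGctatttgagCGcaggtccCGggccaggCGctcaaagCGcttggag
Itpr2: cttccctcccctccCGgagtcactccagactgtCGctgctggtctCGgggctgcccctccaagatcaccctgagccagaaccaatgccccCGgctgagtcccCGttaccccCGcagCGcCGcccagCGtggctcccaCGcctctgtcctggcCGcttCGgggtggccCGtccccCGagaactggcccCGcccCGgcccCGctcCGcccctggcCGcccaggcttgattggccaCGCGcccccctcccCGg
The windows hold 23, 34 and 22 CpG dinucleotides, and their GC content is 66%, 74.4% and 74.4%. Over the matched windows the median was 9 CpG dinucleotides and 58% GC, against 6 and 52.4% over 32851 windows of all genes. Searched on both strands, the motif TCAGCACC (the left part of the binding motif of the repressor REST) was in 0 of the 41 windows and in 1.32% of all windows. GGACAGC, the right part, was in 1 (Cacnb1) and in 5.28% of all. The cyclic AMP response element TGACGTCA was in 0 and 1.55%, and TATAAA was in 2 (Cacna1d and Scn2a1) and 12.4%. These are matches of letters, and DNA methylation or factor binding was not measured.

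Neurons were compared with non-neuronal cells first. Of the 42 genes, 35 passed the filter on low counts, 33 of them were higher in neurons and 1 was lower (adjusted p under 0.05 over all genes, edgeR's quasi-likelihood test with the library as block). Among all 12355 genes tested, 31.5% were called higher and 34.5% lower, and the median log2 fold change was -0.04 against 3.09 over the 35. The 7 that did not pass were Cacna1s, Cacna2d4, Cacng1, Cacng6, Cacng8, Itpr3 and Scn7a. A gene that passed through high counts in 1 arm alone had to differ, so the count describes the genes tested and not all 42. Called fold changes ran from 0.87 ± 0.28 for Cacng7 to 4.38 ± 0.26 for Scn2a1 (log2 ± SE).

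Scn2a1, the gene of the sodium channel Nav1.2, stood at 303, 387 and 441 CPM in neurons and at 8.79, 20.9 and 11.3 CPM in non-neuronal cells of libraries 1, 2 and 3. The other large differences were found for Cacng2 (4.37 ± 0.37), which encodes the AMPA receptor auxiliary protein stargazin, Scn1a (4.23 ± 0.36), Ryr3 (4.27 ± 0.42), Scn4b (4.20 ± 0.36), Cacna1e (4.11 ± 0.34) and Ryr2 (4.08 ± 0.27). Scn9a (Nav1.7) had 126 UMIs in neurons and 3 in non-neuronal cells, a ratio of pooled CPM of 24.6 with a 95% exact counting interval of 8.24 to 121. It passed the filter through neurons alone, so the filter fixed its direction.

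Itpr2, the inositol trisphosphate receptor known as the main one of astrocytes, was the gene called lower in neurons. It stood at 2.19, 2.35 and 3.33 CPM in neurons and at 35.8, 25 and 44.7 CPM in non-neuronal cells, a log2 fold change of -3.99 ± 0.28 (adjusted p = 1.46e-05, edgeR). The libraries of both groups lay far apart. The gene passed the filter on low counts through non-neuronal cells alone, so the filter fixed its direction. Cacng5, an AMPA receptor auxiliary subunit, was not called (0.37 ± 0.28, adjusted p = 0.26, edgeR), with 17.5, 15.6 and 19 CPM in neurons and 5.41, 9.93 and 14 CPM elsewhere. Of the 34 calls, those of 31 were kept in each of the 11 alternatives of this comparison, and Cacng7 kept its call in 8.

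**Figure D2:**
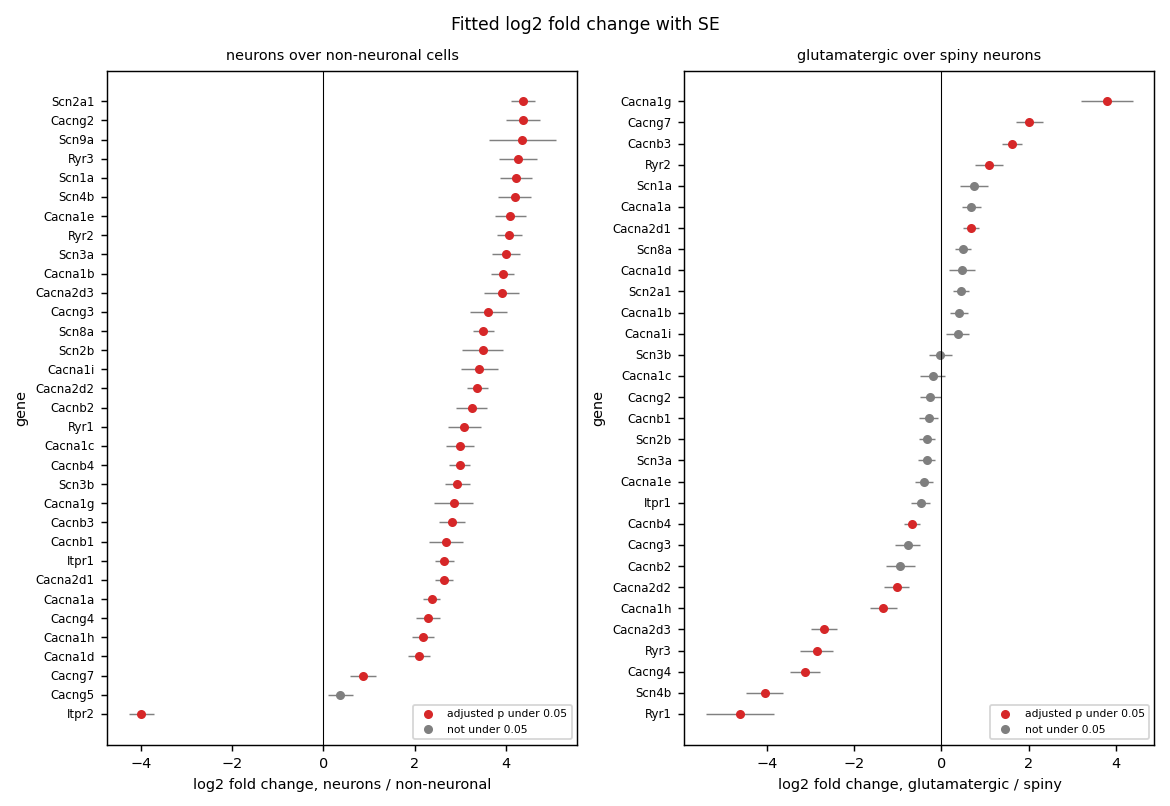
Fitted log2 fold change (points) with SE (bars) of channel genes that passed the filter, for neurons over non-neuronal cells (left, 33 genes plotted) and glutamatergic over spiny neurons (right, 30 genes plotted); red points have an adjusted p under 0.05. At the left 31 points lie above 0 in red and Itpr2 lies at -3.99; at the right 5 of the plotted genes are called higher and 8 lower.

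Comparisons within neurons called fewer genes. Between D1 and D2 spiny neurons 31 genes were tested, 1 was higher in D1 and 4 were lower, while 1.90% and 1.96% of all genes were called in these directions (edgeR). Glutamatergic neurons had 6 of 31 higher and 8 lower than spiny neurons (8.47% and 6.77% of all genes). Here too, the filter fixed the direction of genes that passed through a single arm. Cacna1g passed through glutamatergic neurons alone, and Ryr1, Ryr3 and Cacng4 through spiny neurons alone. Scn4b, Cacna1h, Cacna2d2 and Cacna2d3 reached the filter's level in some glutamatergic libraries and not in all, and Cacng7 in some spiny libraries. These genes too needed the counts of the higher arm to pass. For Sst-Npy interneurons over spiny neurons 27 genes were tested, 0 higher and 4 lower (4.80% and 5.57%). This fit used arms of at least 5 cells, a limit set after cell numbers were seen, since only library 2 held 10 such cells, and without any single library it called 0 of the genes. Tshz1-type over D1 spiny neurons, in libraries 2 and 3, gave 1 of 31 higher and 1 lower (1.43% and 1.46%). For Pvalb interneurons over spiny neurons, with 10 cells in libraries 1 and 2 alone, edgeR called 0 of 28 genes and 0% of all genes, 18 of the 28 had an unadjusted p under 0.05, and DESeq2 called 2. With arms of at least 5 cells, which brings in the 9 cells of library 3, edgeR called 5 of 29 higher and 13 lower (7.89% and 9.84% of all genes). Those lower include Cacna1h, Cacna2d3 and Ryr3, which passed the filter through spiny neurons alone, so their direction was fixed. The glutamatergic, Sst-Npy and Pvalb comparisons share the spiny sums, and the Tshz1-type comparison shares the D1 sums with that of D1 and D2. Spiny markers stood at 9.3% to 29.8% of their level in all neurons in glutamatergic neurons and interneurons, and their part in these results was not tested.

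Among the pore-forming sodium channel genes, Scn2a1, Scn3a and Scn8a (Nav1.2, Nav1.3 and Nav1.6) were present in all 3 libraries of each neuronal class except Scn3a in Pvalb interneurons. D1 and D2 spiny neurons were close: Scn2a1 stood at 299.5, 389 and 448 CPM in D1 and 274, 337 and 405 CPM in D2 neurons of libraries 1, 2 and 3. Scn8a stood at 172, 171 and 251 CPM in D1 and at 153, 177 and 249 CPM in D2 neurons. Neither differed by a call (Scn2a1 0.15 ± 0.08, Scn8a -0.04 ± 0.10, log2 D1 over D2 ± SE). Scn1a (Nav1.1), known as the main sodium channel of fast-spiking interneurons, stood at 241, 218 and 259 CPM in Pvalb interneurons, at 78, 80.4 and 89.1 CPM in D1 and at 64.4, 81.3 and 113 CPM in D2 neurons. The Pvalb libraries all lay above the spiny libraries. The log2 fold change over spiny neurons was 1.45 ± 0.26 in libraries 1 and 2 (adjusted p = 0.181, edgeR) and 1.44 ± 0.24 in all 3 (adjusted p = 0.00337, edgeR). Scn3a went the other way, with -2.16 ± 0.29 in the first of these fits (adjusted p = 0.134, edgeR) and -2.61 ± 0.47 in the second (adjusted p = 0.00415, edgeR). Scn9a was low in spiny neurons, at 20.3, 8.23 and 17.8 CPM. Scn7a, a channel-like gene linked to sodium sensing, had its highest mean in OPCs on 1 UMI.

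Scn4b, a sodium channel beta subunit whose product is known for the resurgent sodium current, stood at 890.4, 495 and 528 CPM in D1 and at 958, 607 and 497 CPM in D2 spiny neurons. It stood at 267, 403 and 232 CPM in Tshz1-type, at 0, 33.8 and 48 CPM in glutamatergic, at 0, 66.3 and 23.1 CPM in Sst-Npy and at 0, 35.2 and 43.2 CPM in Pvalb neurons. All 3 libraries of the glutamatergic and interneuron classes lay below all libraries of the 3 spiny classes, at levels near those of non-neuronal cells (12.2, 35.7 and 12 CPM). The log2 fold change over spiny neurons was -4.06 ± 0.42 in glutamatergic neurons (adjusted p = 0.000176, edgeR) and -3.54 ± 0.47 in Sst-Npy interneurons (adjusted p = 0.000435, edgeR). In Pvalb interneurons it was -4.41 ± 0.63 in the 2-library fit (adjusted p = 0.148, edgeR) and -4.17 ± 0.41 in the 3-library fit (adjusted p = 0.000186, edgeR). Tshz1-type neurons were lower than D1 neurons by -0.67 ± 0.19 (adjusted p = 0.0184, edgeR), a call lost with arms of at least 5 cells (adjusted p = 0.0733, edgeR).

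Scn2b and Scn3b also encode beta subunits, and they differed by no call between D1 and D2, glutamatergic and spiny, or Sst-Npy and spiny neurons. Scn2b was lower in Pvalb than in spiny neurons in the 3-library fit (-1.24 ± 0.29, adjusted p = 0.0189, edgeR).

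**Figure D3:**
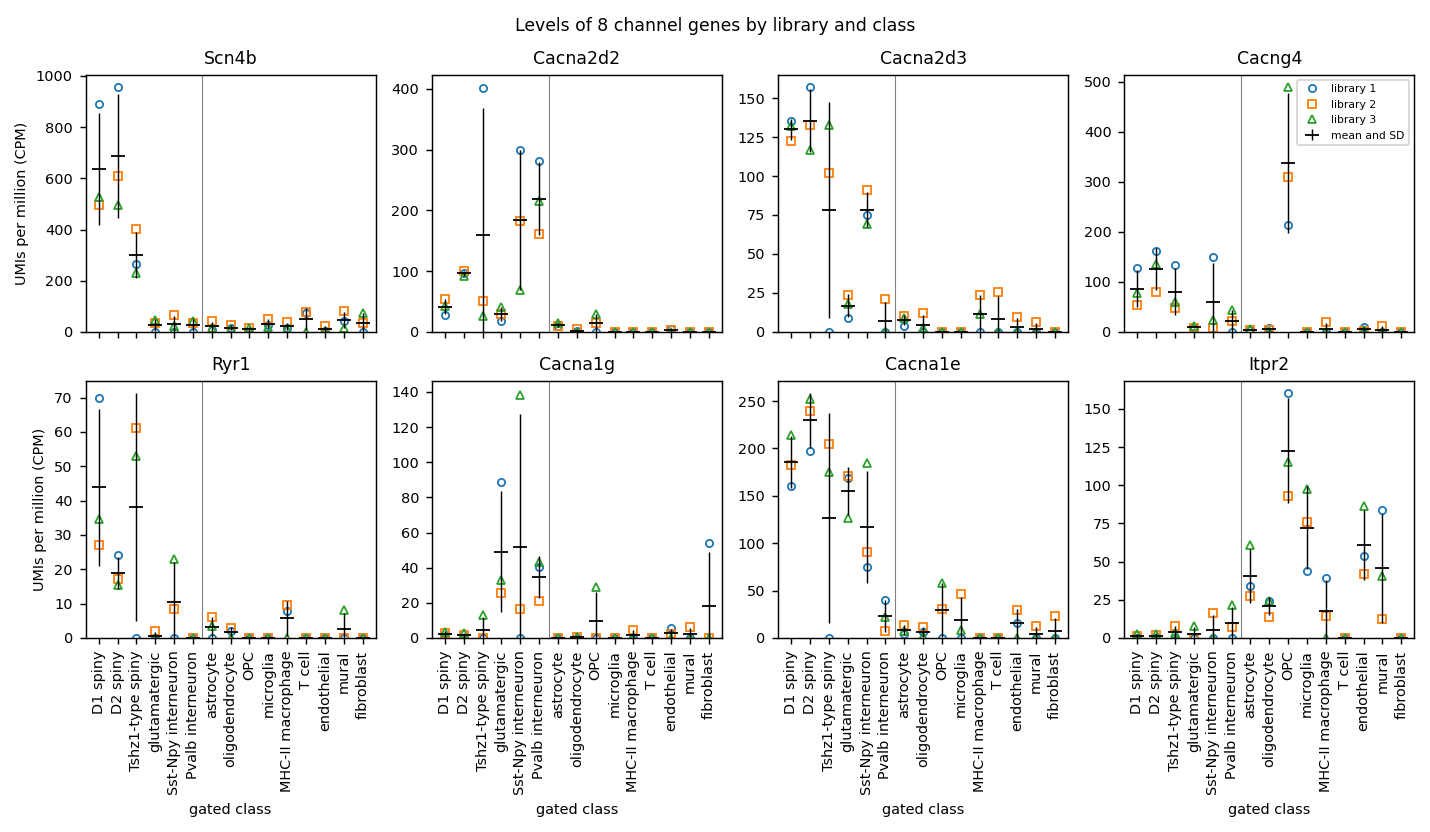
Level in CPM of 8 channel genes in 15 gated classes, with an open symbol for each library (circle 1, square 2, triangle 3) and a black dash with a bar for the mean and SD over 3 libraries; the grey line separates neuronal classes (left) from others. Scn4b is high in the 3 spiny classes, Cacna1g is higher in glutamatergic than in spiny neurons, Cacng4 is high in OPCs and Itpr2 right of the line, while Tshz1-type values of library 1 rest on 7 cells.

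The pore-forming calcium channel genes fall into the high-voltage-activated Cav1 and Cav2 groups and the low-voltage-activated Cav3 group. Of the L-type genes, Cacna1c (Cav1.2) stood at 90.3, 63.8 and 76.4 CPM in D1 and at 88.5, 82.3 and 77.4 CPM in D2 neurons, and Cacna1d (Cav1.3) at 28.7, 22 and 31.2 CPM and 44.3, 25.8 and 33.8 CPM. Neither was called in the reported fits among neurons or in the 3-library Pvalb fit, while the single fit over all classes called Cacna1c lower in Pvalb than in spiny neurons (adjusted p = 0.0415, edgeR). Of the Cav2 genes, which encode the presynaptic P/Q-type, N-type and R-type channels, Cacna1e (Cav2.3, R-type) was lower in D1 than in D2 neurons. It stood at 160.0, 182 and 214 CPM in D1 and at 197, 240.0 and 252 CPM in D2 neurons, higher in D2 in each library although the groups overlap. The log2 fold change was -0.37 ± 0.10 (adjusted p = 0.00504, edgeR), called in 5 of 12 alternatives.

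In Pvalb interneurons Cacna1e had 3 UMIs, against 1634 in spiny neurons. The ratio of pooled CPM was 14.7-fold higher in spiny neurons, with a 95% exact counting interval of 5.02 to 71.3, and the fitted fold change had an adjusted p of 0.139 in the 2-library fit and 0.000325 in the 3-library fit (edgeR). Cacna1a (Cav2.1, P/Q-type) stood at 321, 91.5 and 367 CPM in Pvalb interneurons and at 95.5, 91.5 and 111 CPM in spiny neurons, so the groups overlap. It was not called in either fit. Cacna1b (Cav2.2, N-type) stood at 97.7, 101 and 111 CPM in glutamatergic and at 71.1, 83.3 and 83.8 CPM in spiny neurons, which do not overlap, and the difference was not called (0.40 ± 0.21, adjusted p = 0.258, edgeR).

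Of the T-type genes, Cacna1g (Cav3.1) stood at 88.8, 25.8 and 32.8 CPM in glutamatergic neurons against 0, 2.4 and 3.17 CPM in spiny neurons. All glutamatergic libraries lay above all spiny libraries, and the log2 fold change was 3.81 ± 0.59 (adjusted p = 0.00134, edgeR). Its high mean in Sst-Npy interneurons rests on 8 UMIs, with 0, 16.6 and 138 CPM, and was not among the genes tested there. Cacna1h (Cav3.2) went the other way, at 17.8, 25.8 and 12.6 CPM in glutamatergic and 48.8, 56.4 and 43.2 CPM in spiny neurons (-1.33 ± 0.31, adjusted p = 0.0147, edgeR). Cacna1i (Cav3.3) stood at 67, 42.7 and 55.9 CPM in spiny neurons and was called in none of the reported fits among neurons.

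The alpha2delta subunits promote the surface level of calcium channels, and of their genes Cacna2d2 was the one called between D1 and D2 spiny neurons. It stood at 28.7, 53.7 and 42.8 CPM in D1 and at 96.6, 100.3 and 92.8 CPM in D2 spiny neurons, with no overlap. The log2 fold change was -1.02 ± 0.14 (adjusted p = 2.46e-10, edgeR), and it was called in 10 of 12 alternatives, more than any other of the 5 genes called between D1 and D2. The fit without the library block (adjusted p = 0.162, edgeR) and the single fit over all classes (adjusted p = 0.0799, edgeR) did not call it. Its level was 281, 162 and 216 CPM in Pvalb and 299, 182 and 69.2 CPM in Sst-Npy interneurons, and 17.8, 29.8 and 40.4 CPM in glutamatergic neurons. Over spiny neurons it was called lower in glutamatergic neurons (-1.03 ± 0.29, adjusted p = 0.0366, edgeR) and higher in Pvalb interneurons in the 3-library fit (adjusted p = 0.00561, edgeR). In the 2-library fit the value was 1.40 ± 0.27 with an adjusted p of 0.185 (edgeR).

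Cacna2d1, the gene of a gabapentin-binding alpha2delta protein, stood at 319.6, 274 and 311 CPM in glutamatergic, 205, 201 and 212 CPM in D1 and 121, 198 and 197 CPM in D2 neurons (over spiny neurons 0.67 ± 0.19, adjusted p = 0.0365, edgeR). It was lower in Sst-Npy than in spiny neurons (-2.33 ± 0.49, adjusted p = 0.00698, edgeR), where it stood at 0, 49.7 and 23.1 CPM. Cacna2d3 stood at 146, 126 and 125 CPM in spiny neurons and at 8.88, 23.8 and 17.7 CPM in glutamatergic neurons, which do not overlap (-2.69 ± 0.30, adjusted p = 0.000175, edgeR). In Pvalb interneurons Cacna2d3 had 3 UMIs against 1004 in spiny neurons, a ratio of 9.03 (3.08 to 43.9). It passed the filter of the Pvalb fits through spiny neurons alone, which fixed its direction. Cacna2d4 did not pass the filter in neurons over non-neuronal cells.

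The intracellular beta subunits bind the pore-forming calcium channel subunit. Cacnb4 stood at 376, 375 and 530.2 CPM in spiny neurons and was lower in glutamatergic (-0.67 ± 0.19, adjusted p = 0.035, edgeR) and Sst-Npy neurons (-1.52 ± 0.35, adjusted p = 0.0151, edgeR). Cacnb3 had the opposite order in glutamatergic neurons, with 302, 181 and 182 CPM against 63, 75.4 and 64.8 CPM in spiny neurons, and no overlap (1.62 ± 0.22, adjusted p = 0.00064, edgeR). Cacnb1 and Cacnb2 were called in none of the reported fits among neurons except that Cacnb1 was lower in Pvalb interneurons in the 3-library fit, on 3 UMIs against 645 (ratio 5.8, 1.98 to 28.2).

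The Cacng genes encode a skeletal muscle calcium channel subunit (Cacng1), its relative Cacng6, and the transmembrane AMPA receptor regulatory proteins Cacng2, Cacng3, Cacng4, Cacng5, Cacng7 and Cacng8. Of these, Cacng4 and Cacng2 were lower in D1 than in D2 spiny neurons. Cacng4 stood at 127, 54.8 and 78.7 CPM in D1 and at 161, 79.8 and 136 CPM in D2 neurons (-0.62 ± 0.13, adjusted p = 0.000282, edgeR; called in 6 of 12 alternatives). Cacng2 stood at 78, 52.1 and 88 CPM and 141, 58.4 and 151 CPM (-0.48 ± 0.14, adjusted p = 0.0197, edgeR; called in 4 of 12). Both were higher in D2 in each library, and the groups overlap because the libraries differ in level. Cacng3 had a similar difference that missed the threshold (-0.37 ± 0.12, adjusted p = 0.0548, edgeR).

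Glutamatergic neurons differed from spiny neurons in Cacng4, with 8.88, 7.95 and 12.6 CPM against 144, 63.6 and 105 CPM (-3.13 ± 0.34, adjusted p = 0.000129, edgeR). Cacng7 had the opposite order, with 44.4, 61.6 and 109 CPM against 24.4, 14.6 and 22.2 CPM (2.02 ± 0.30, adjusted p = 0.00106, edgeR), and in both genes the groups do not overlap. Pvalb interneurons stood at 80.3, 56.3 and 64.8 CPM of Cacng7 and 281, 106 and 346 CPM of Cacng2, called higher in the 3-library fit (1.77 ± 0.39 and 1.23 ± 0.26). Cacng5 stood at 134, 28.1 and 49.7 CPM in Tshz1-type and at 8.21, 8.73 and 12.7 CPM in D1 neurons. Its log2 fold change in libraries 2 and 3 was 1.82 ± 0.41 (adjusted p = 0.000813, edgeR), called in 4 of 10 alternatives. Cacng5 passed the filter there through Tshz1-type neurons alone, so the filter fixed its direction. DESeq2 gave it no adjusted p, and with library 1 added (7 cells) the gene did not pass the filter. Cacng1, Cacng6 and Cacng8 had mean levels below 10 CPM in every neuronal class.

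Among the release channels, Ryr1, the isoform of skeletal muscle, and Ryr3 were higher in spiny than in glutamatergic neurons, and Ryr2, the isoform of heart and brain, was lower. Ryr1 stood at 46.7, 23.5 and 26 CPM in spiny neurons and had 1 UMI in glutamatergic neurons, a ratio of pooled CPM of 25.7 with a 95% exact counting interval of 4.57 to 1022 (adjusted p = 0.00125, edgeR). Ryr3 stood at 104, 77.5 and 96.5 CPM in spiny and 8.88, 17.9 and 5.05 CPM in glutamatergic neurons (-2.87 ± 0.39, adjusted p = 0.000528, edgeR). Ryr2 stood at 159.8, 99.3 and 106 CPM in glutamatergic and 26.4, 67.9 and 58.4 CPM in spiny neurons (1.09 ± 0.31, adjusted p = 0.0395, edgeR). Each of the 3 genes was without overlap between these classes.

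Within spiny neurons Ryr1 was the gene called higher in D1, at 69.8, 27 and 34.7 CPM against 24.1, 17 and 15.5 CPM in D2 neurons. All D1 libraries lay above all D2 libraries, and the log2 fold change was 0.86 ± 0.24 (adjusted p = 0.0107, edgeR). The call was kept in 3 of 12 alternatives and was lost when any 1 library was left out, with adjusted p of 0.054, 0.0859 and 0.392 without libraries 1, 2 and 3 (edgeR). Itpr1, the main inositol trisphosphate receptor of neurons, stood at 369.7, 384 and 369.5 CPM in spiny neurons, at 149.7, 99.4 and 46.1 CPM in Sst-Npy and at 0, 56.3 and 64.8 CPM in Pvalb interneurons. Both interneuron classes lay below all spiny libraries (-2.08 ± 0.36, adjusted p = 0.00282, edgeR, for Sst-Npy). For Pvalb interneurons the value was -3.09 ± 0.60 in the 2-library fit (adjusted p = 0.177, edgeR) and -2.90 ± 0.39 in the 3-library fit (adjusted p = 0.00115, edgeR).

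Channel genes were also compared among non-neuronal classes, where levels rest on few UMIs. OPCs stood at 214, 309 and 489 CPM of Cacng4, above every library of every other class, and at 8.15, 4.9 and 2.32 CPM in oligodendrocytes. Between OPCs and oligodendrocytes 5 channel genes were tested and 4 were higher in OPCs (13.3% of all genes higher, 15.9% lower, edgeR): Cacng4 (5.85 ± 0.50, adjusted p = 2.35e-05), Scn1a (4.02 ± 0.75, adjusted p = 0.00186), Scn3a (3.26 ± 0.58, adjusted p = 0.00157) and Itpr2 (2.04 ± 0.39, adjusted p = 0.00267). With a library left out 1, 1 and 0 of these were called. All 4 passed the filter on low counts through OPCs alone, so the filter fixed their direction. OPCs held 90 cells, and neuron markers stood at 7.25%, 16.8% and 11.6% of their neuronal level there, the highest of the glial classes. In OPCs, Scn1a stood at 75.1%, 82.9% and 62% and Scn3a at 38.8%, 30.7% and 60.2% of their levels in neurons, on 1, 5 and 5 UMIs of Scn1a and 1, 3 and 8 UMIs of Scn3a, and the part of neuronal RNA in these values was not tested. Ryr1, Ryr2 and Ryr3 had 0 UMIs in OPCs, where 3 UMIs over the pooled libraries would be 19.6 CPM.

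Astrocytes and oligodendrocytes shared 12 genes that passed the filter, with 3 higher in astrocytes and 2 lower (24.2% and 22.3% of all genes, edgeR). Itpr1 (1.36 ± 0.35) and Itpr2 (0.93 ± 0.32, at 33.9, 27.5 and 60.6 CPM) were among those higher in astrocytes, where neuron markers stood at 1.5%, 10.1% and 2.66% of their neuronal level. Cacnb4 was higher in oligodendrocytes, at 46.9, 86.9 and 62.6 CPM against 5.65, 29.2 and 13.8 CPM in astrocytes (-2.04 ± 0.32, adjusted p = 5.9e-07, edgeR). Cacng5 had 69 UMIs in oligodendrocytes and 2 in astrocytes, a ratio of 24.4 (95% exact counting interval 6.5 to 205). It passed the filter through oligodendrocytes alone, so the filter fixed its direction.

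Among the other cells, Itpr2 stood at 43.6, 75.8 and 97.3 CPM in microglia and at 53.9, 42 and 86.4 CPM in endothelial cells, above the neuronal level in every library. Cacna1a, a gene of presynaptic calcium entry, stood at 29.1, 52.5 and 70.8 CPM in microglia (2, 9 and 8 UMIs), which is 27.4%, 51% and 56.6% of its neuronal level where neuron markers stood at 2.43%, 12% and 1.54%. Mural cells, the contractile cells of vessels, stood at 83.5, 87.8 and 32.4 CPM of Cacna1c, the L-type channel of smooth muscle, on 2, 14 and 4 UMIs, against 73.3, 69.2 and 73.4 CPM in neurons. Of the channel genes Itpr1 alone passed the filter between mural and endothelial cells, and it was higher in mural cells (83.5, 176 and 121 CPM against 59.2, 71.6 and 65.7 CPM, 1.06 ± 0.33, adjusted p = 0.0239, edgeR), where 13.8% of all genes were higher and 18.7% lower. This call was lost without library 2 and without library 3, where 0 were called. Neuron markers stood at 5.66%, 14.3% and 12.4% of their neuronal level in mural cells and at 2.83%, 11.3% and 1.52% in endothelial cells. Itpr1 stood at 325, 341 and 290 CPM in neurons, and the part of neuronal RNA in the mural difference was not tested. Itpr3 stood at 26.9, 17.3 and 24.2 CPM in endothelial cells and at 2.19, 1.39 and 0.667 CPM in neurons.

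The channel genes were last compared between spiny neurons with and without a UMI of mCherry, the feature taken here to be the FLiCRE reporter. The positive arm held 24, 428 and 57 cells of libraries 1, 2 and 3, and the negative arm 375, 1553 and 402. Of 32 channel genes tested, edgeR called 0, and 0% of all 8901 genes were called. An unadjusted p under 0.05 was reached by 2 of the 32, Cacng5 (-0.98 ± 0.46) and Scn3b (-0.33 ± 0.13), and DESeq2 called 0. Log2 fold changes ran from -0.98 to 0.40 with a median of -0.11, 25 of 32 lay below 0, and adjusted p-values ran from 0.724 to 0.989. SEs of 0.09 to 0.46 (median 0.15) set the size of difference that could be seen. A p that misses the threshold does not show that the arms were alike.

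Scn4b stood at 816, 462 and 506 CPM in mCherry-positive and at 932, 560.1 and 515 CPM in mCherry-negative spiny neurons, lower in each library (-0.20 ± 0.10). Cacng3 was higher in the positive cells of each library, at 87.5, 113 and 159 CPM against 67.7, 94.6 and 146 CPM (0.26 ± 0.12, adjusted p = 0.724, edgeR). Positive cells were deeper, with a median of 1333.5, 3298.5 and 4196 UMIs against 1162, 2526 and 2556, and a larger share of them were D1 neurons (58.3%, 71.7% and 64.9% against 47.7%, 62.8% and 49.5%). Negative cells were also matched on UMIs, separately within D1 and within D2 neurons of each library. With these, 27 of the genes were tested, 0 were called and the median log2 fold change was -0.02. This matching evened out depth and D1 share together, and the part of each in these values was not tested.

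**Figure D4:**
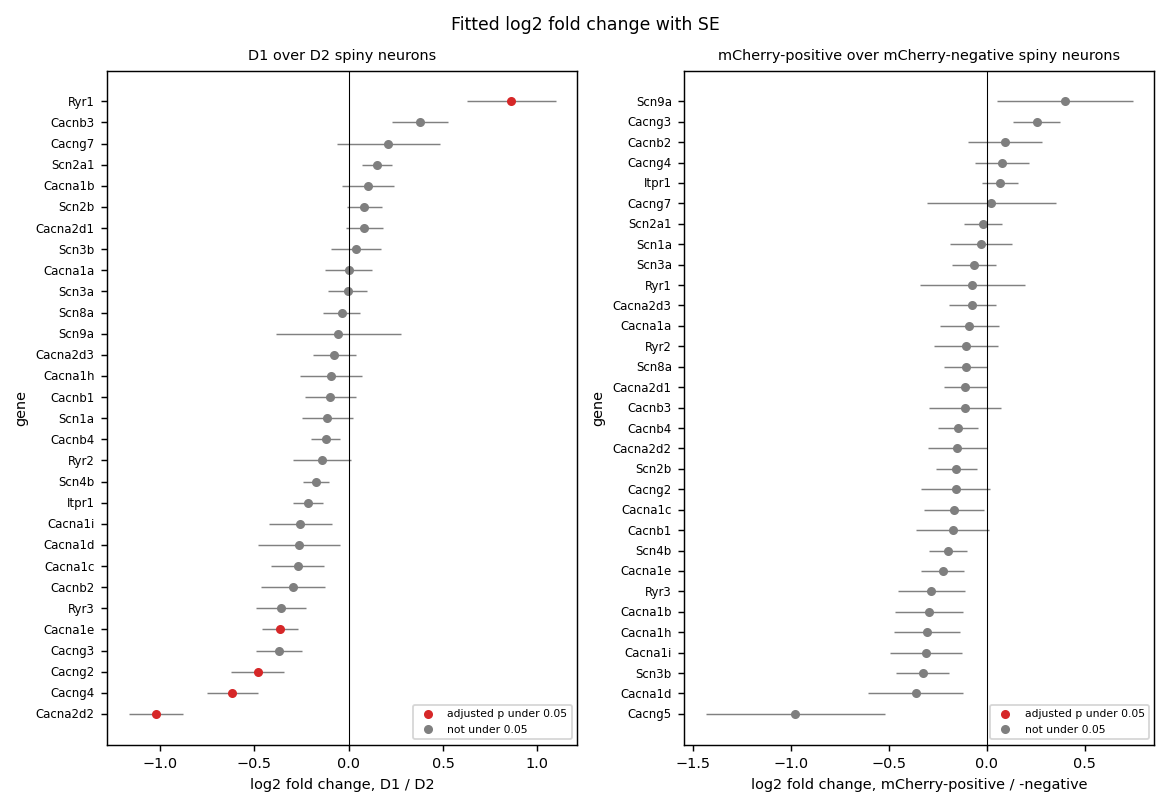
Fitted log2 fold change (points) with SE (bars) of channel genes that passed the filter, for D1 over D2 spiny neurons (left, 30 genes plotted) and for mCherry-positive over mCherry-negative spiny neurons (right, 31 genes plotted); red points have an adjusted p under 0.05. At the left Ryr1 is called higher in D1 and Cacna2d2, Cacng4, Cacng2 and Cacna1e lower; at the right 0 are called and 25 lie below 0.

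Other genes of calcium and sodium handling were read from lists, and are to be set against 31.5% of all genes called higher and 34.5% lower in neurons than in non-neuronal cells. Of the calcium pumps and exchangers, which remove calcium from the cytosol, 10 of 11 tested were higher in neurons than in non-neuronal cells and 0 were lower, among them Atp2b3 (5.15 ± 0.79) and Slc8a2 (4.28 ± 0.40). Of the store-operated and mitochondrial uptake genes 6 of 11 were higher and 4 lower, with Micu3 (2.60 ± 0.22) and Orai2 (2.28 ± 0.26) higher, and Orai1, the pore of store-operated entry (-3.17 ± 0.27), lower. Of channel partners and regulators 17 of 23 were higher and 3 lower. Unc80, a subunit of the sodium leak channel complex (4.43 ± 0.39), and Rem2, an inhibitor of calcium channels (3.92 ± 0.52), were higher, and the scaffold gene Homer3 (-4.22 ± 0.34) was lower. The medians of the 3 lists were 2.55, 0.53 and 2.43 against -0.04 over all genes.

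Within neurons, Atp2b4, a plasma membrane calcium pump, was the gene of the 3 lists called between D1 and D2 spiny neurons (higher in D1, 0.53 ± 0.15; 1.90% of all genes). In Tshz1-type over D1 neurons Atp2b4 (1.45 ± 0.20) and Stac2, a calcium channel adaptor (2.14 ± 0.40), were higher (1.43% of all genes). Glutamatergic neurons had 1 of 8 pump and exchanger genes higher and 1 lower than spiny neurons, 0 of 8 store-operated and mitochondrial genes called, and 5 of 17 partners higher and 3 lower, where 8.47% of all genes were higher and 6.77% lower. Their largest values were Fkbp1b, a ryanodine receptor binding protein (3.80 ± 0.51), Slc24a2 (1.98 ± 0.26) and Rem2 (-4.07 ± 0.36). Sst-Npy interneurons had 2 of 8 pump and exchanger genes higher and 2 lower than spiny neurons, 0 of 6 store-operated and mitochondrial genes called, and 1 of 16 partners higher and 3 lower (4.80% of all genes higher, 5.57% lower). Of these Rem2 (-2.98 ± 0.66) and the calcium pump gene Atp2b1 (-2.91 ± 0.34) were lower and Slc24a3 was higher (3.33 ± 0.39). Without library 1, 2 or 3 edgeR called 3, 0 and 0 of all genes in this comparison. None of the 3 lists had a gene called between mCherry-positive and mCherry-negative spiny neurons, where 0% of all genes were called by edgeR.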

How the data were processed

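The deposited file is 1 pooled matrix of whole UMI counts per gene and cell, made by the authors with Cell Ranger (3.0 per the submitters' processing notes, 3.0.0 per the file headers) on mm10 from 10x 3′ v2 libraries, per the labels. The annotation release, cell calling and any equalising of depth are not given in the sources used here. UMIs are not scaled by gene length, so levels are compared between classes and not between genes. Some of the 42 genes are counted in the totals and not reported here by name or plotted. UMIs of sense and antisense partners or of overlapping genes were taken as deposited.

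Members, gene lists and tests were chosen with earlier results of these data known. Cells below 300 genes or above 20% mitochondrial UMIs were left out. A cell took the class with the highest share of its markers detected, with at least 3 markers and the next class at no more than 2/3 of that share. Neurons were divided by the spiny, D1, D2, Tshz1, glutamatergic, Sst-Npy and Pvalb lists. These gating rules were set after cell numbers and marker counts under several settings were seen. No doublet caller was run. The rules limit markers of other classes without excluding them, so mixed cells can remain. Glutamatergic and Pvalb neurons could carry up to 5 spiny markers, and D1 and D2 neurons 1 marker of the other type. Counts were summed per library and class in arms of at least 10 cells (5 for Sst-Npy, set after cell numbers were seen). The sums were tested with edgeR 4.0.16 (R 4.3.3; robust prior and bias-adjusted deviances, settings taken from an earlier analysis that had its results in view), with TMM scaling and its filterByExpr filter, a block for the library (the compared sums share libraries), and p-values adjusted over all genes by Benjamini-Hochberg with a threshold of 0.05. In every comparison, a gene that passed the filter through a single arm had its direction fixed in advance. An SE is the absolute log2 fold change over the root of the F statistic. The scripts were tested on simulated data. Alternatives were DESeq2 1.42.0, RLE scaling, no filter, the default prior, no block, a single fit over all classes, each library left out, and other cell filters. In each comparison the genes named are up to 8 higher and 8 lower with the largest fold change among those called with the same sign in every library, and other genes named were chosen after their values were seen. Levels are described by the highest class of each gene. Exact counting intervals (Clopper-Pearson) cover counting error only.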

Additional observations from a re-analysis of the deposited data

How the results depend on the processing

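Among the called channel genes with the largest fold changes in each comparison, none of 509 values under the alternatives changed sign, 401 kept their side of the threshold and 108 lost it. These genes were chosen to have the same sign of CPM difference in every library. A kept sign, above all with a library left out, was therefore largely set by that choice. Genes that were not called and genes of the other lists are not in that count. Of the former, Scn8a between D1 and D2 stood near 0 and changed sign with no replicate block (0.00052), in the single fit over all classes (0.01) and without library 2 (0.03). Counts below are of channel genes called. Between D1 and D2 (5), the count was 2 with no low-count filter, 1 with DESeq2, 0 with no replicate block, 0 in a single fit over all classes, 3 in cells of at least 1000 UMIs, 1 with 1 more marker per cell, and 1 to 4 with a library left out. For glutamatergic over spiny neurons (14) DESeq2 gave 9 and leaving out a library 7 to 22. For Sst-Npy over spiny neurons (4) it was 8 with no filter and 0 with any library left out. For Pvalb over spiny neurons (0) it was 2 with DESeq2, 10 with the default prior, 2 with no replicate block, 14 in the single fit and 18 with arms of at least 5 cells. For Tshz1-type over D1 neurons (2) it was 0 with no filter, DESeq2, no replicate block, the single fit, 1 more marker per cell, or arms of at least 5 cells. For astrocytes over oligodendrocytes (5) it was 8 with no filter, 8 in the single fit and 3 to 7 with a library left out. For OPCs over oligodendrocytes (4) it was 0 in cells of at least 1000 UMIs, 0 with 1 more marker per cell, and 0 to 1 with a library left out. For mural over endothelial cells (1) it was 2 with no filter, 0 with DESeq2, 0 with no replicate block, 4 in the single fit and 0 to 1 with a library left out. The count for neurons over non-neuronal cells stayed between 32 and 37 of 34 to 42 genes tested, and that for mCherry at 0, in the alternatives run. Classes of few cells limit what could be seen. The cause of each change in count was not tested.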
